A study of Bos taurus with 138 samples.

Results

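The genes described here are the 10 listed core components of processing bodies and of the mRNA decapping machinery: DDX6, EIF4ENIF1, LSM14A, LSM14B, EDC3, EDC4, DCP1A, DCP1B, DCP2 and XRN1. They were taken by symbol from the deposited bovine count table, whatever their values, and all 10 were found among its 16706 gene rows. All 10 also passed the filters on low counts in both models that were fitted. For each gene the level in whole oocytes or embryos and the distribution over a sucrose gradient were followed through 6 stages.

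Processing bodies are cytoplasmic granules of mRNA and protein in which untranslated mRNA gathers. Their proteins repress translation at the cap, remove the cap and hand the uncapped mRNA to an exonuclease. DDX6 is an RNA helicase and translational repressor, and EIF4ENIF1 encodes 4E-T, which binds the cap-binding protein eIF4E and keeps it from recruiting ribosomes. LSM14A and LSM14B are RNA-binding partners of DDX6. EDC3 and EDC4 are scaffolds that enhance decapping, DCP1A and DCP1B activate the catalytic subunit DCP2, and XRN1 degrades decapped mRNA from the 5′ end. In growing and full-grown oocytes, which store mRNA before transcription resumes in the embryo, several of these proteins sit in complexes that hold maternal mRNA silent.

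The stages were GV (germinal vesicle) oocytes, MII (metaphase II) oocytes, and embryos at the 2-cell, 8-cell, morula and blastocyst stages. Oocytes came from slaughterhouse ovaries, GV oocytes without maturation and MII oocytes after maturation in vitro. Embryos were fertilized in vitro with semen of a single Holstein bull and cultured, and cumulus cells and zona pellucida were removed before collection. For polysome profiling, pools of oocytes or embryos were held in cycloheximide, which stops elongating ribosomes, and the lysate was spun through a sucrose gradient that was cut into 10 fractions, each sequenced. There were 2 gradients (A and B) and 3 whole-cell transcriptomes (A, B and C) per stage, 138 libraries in all, with no treatment or genotype compared.

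Transcriptome libraries held 3269386 to 11812567 counts, with the blastocyst libraries at the low end (3269386 to 5256282), and fraction libraries held 1229382 to 17342859. Levels are given as CPM, counts scaled to a common library total with trimmed mean of M values (TMM) factors, so each is relative to the other mRNA of its own library. In such pooled material fewer cells with an mRNA and less of it per cell cannot be told apart. Summed markers set early and late stages apart: oocyte markers were 16181 to 19115 CPM at GV and 14.4 to 85.2 CPM in morulae. Trophectoderm and blastocyst markers summed to 39.2 to 48.2 CPM at GV and 4307 to 4937 CPM in blastocysts. Most of the blastocyst sum was KRT8 and KRT18, at means of 1579 and 2851 CPM, and GATA3 was also highest there (133.6 CPM). CDX2 did not set blastocysts apart, with means of 6.63 CPM at the 2-cell stage and 6.34 CPM in blastocysts. NANOG was highest at the 8-cell stage (173 CPM against 26.7 CPM in blastocysts). Summed cumulus and granulosa markers were 491 to 618 CPM at GV against 12.6 to 18.1 CPM in morulae and 24.9 to 30.7 CPM in blastocysts, and the part of those cells in the results was not tested. Most of the GV sum was STAR, at a mean of 509 CPM. HAS2 was at 31.0 CPM, CYP19A1 at 3.46 CPM and PTX3 at 1.04 CPM, with FSHR, TNFAIP6 and AMH at means of 0.206 CPM or lower. At MII, with sums of 397 to 489 CPM, HAS2 was at a mean of 159.8 CPM, STAR at 159.0 CPM and TNFAIP6 at 110.4 CPM. Gradient pools stood apart from the transcriptomes of their stage: oocyte markers summed to 1025 to 5774 CPM in 8-cell pools against 268 to 587 CPM in transcriptomes, and to at most 1213 CPM in morula pools. Blastocyst markers reached 4215 CPM in morula pools against 129 to 314 CPM in transcriptomes. The part of these gaps in the comparisons of pools with transcriptomes was not tested.

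The first comparison asked how the level of each gene in the transcriptome moved from one stage to the next. Of 50 tests (10 genes at 5 transitions), 10 passed an adjusted p of 0.05, 5 higher and 5 lower. Across all genes the same model called 24.5% of tests, 12% higher and 12.5% lower, and the share of called members was near that background. Over the 5 transitions in order of development, from maturation to blastocyst formation, the background was 18.7%, 13.1%, 52.2%, 15.4% and 23.2%. Among the 10 calls the largest changes were a fall of EIF4ENIF1 between the 2-cell and 8-cell stages, a fall of DCP2 and a rise of LSM14B between morula and blastocyst, and a rise of XRN1 between GV and MII. This model takes its error from transcriptomes and polysome pools together, and samples were the biological duplicates and triplicates named by the study. Where a call depended on 1 library, the value given for the fit without it is the adjusted p, after the log2 difference where both are printed. With transcriptomes alone 23 of the 50 tests passed, including all of those 10, against 36.4% to 75.6% of all genes by transition.

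**Figure D1:**
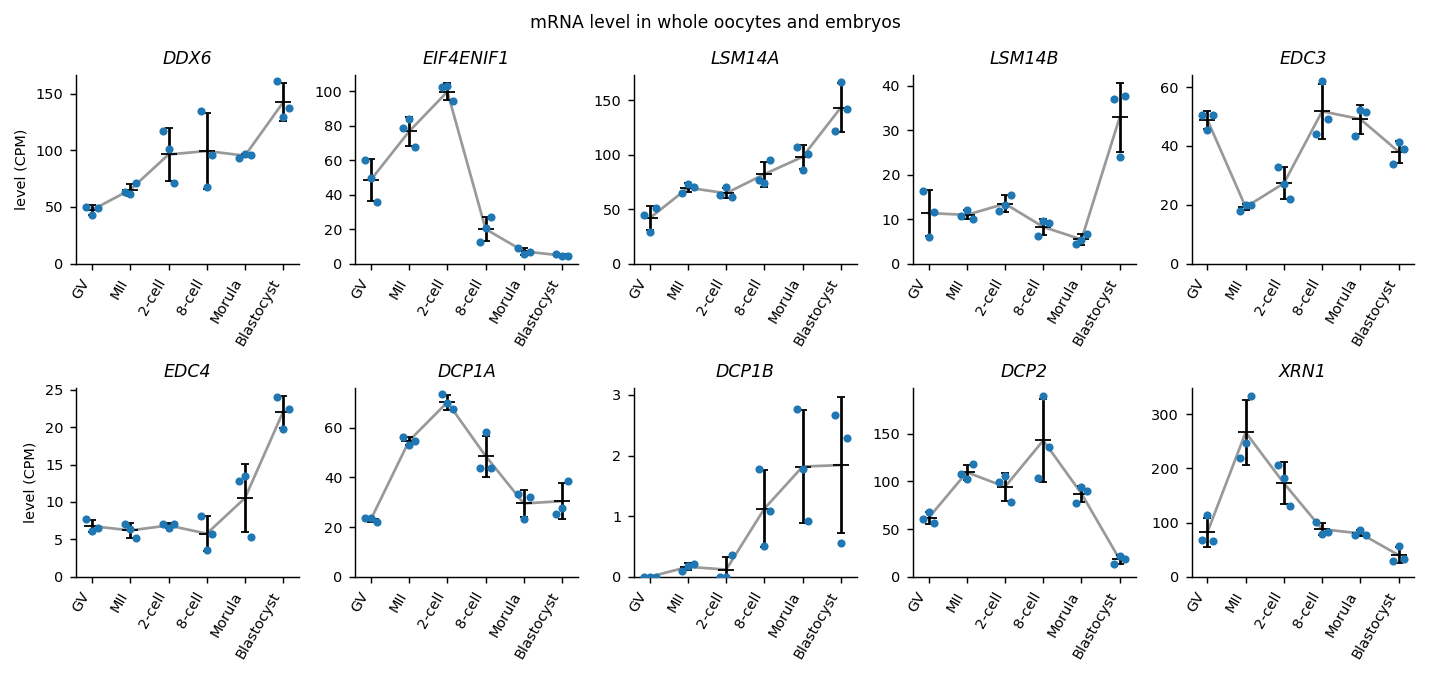
Transcriptome level of each of the 10 genes (y axis, CPM, own scale per panel) by stage (x axis). Points are the 3 libraries of a stage, the line joins the means and bars are SD. EIF4ENIF1 drops from 99.9 CPM at the 2-cell stage to 4.63 CPM in blastocysts, while LSM14A and DDX6 are highest in blastocysts at 143 CPM each.

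EIF4ENIF1, the gene of 4E-T, was highest at the 2-cell stage and fell at both of the next transitions. Its transcriptomes A, B and C held 60.3, 49.7 and 36 CPM at GV, 78.8, 83.9 and 67.7 CPM at MII, and 102, 103 and 94.2 CPM at the 2-cell stage. They held 12.6, 20.6 and 26.9 CPM at the 8-cell stage, 9.28, 5.32 and 6.56 CPM in morulae, and 5.34, 4.33 and 4.23 CPM in blastocysts. The 8-cell libraries did not overlap with those of the stages before or after. The 2-cell to 8-cell fall was 4.93-fold (log2 change -2.30, SE 0.46, adjusted p = 0.000208) and kept its call when any single library was left out. The 8-cell to morula fall was 2.86-fold (log2 -1.51, SE 0.45, adjusted p = 0.0238). That call was lost without 8-cell transcriptome B (0.0526) or C (0.102), or without morula transcriptome B (0.106) or C (0.0839). From GV to blastocyst the log2 change was -3.34 (SE 0.49, adjusted p = 4.16e-06). In the order of stage means, 2-cell, MII and GV did not differ between neighbours (adjusted p = 0.795 and 0.275), GV stood above 8-cell (0.0197), and morula and blastocyst did not differ (0.441). With transcriptomes alone the rise of EIF4ENIF1 from GV to MII passed (log2 0.735, adjusted p = 0.0151).

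DDX6 changed little from stage to stage and was highest in blastocysts. Its transcriptomes held 50.3, 42.6 and 49.1 CPM at GV, 63.4, 61.1 and 71.4 CPM at MII, and 117, 101 and 70.9 CPM at the 2-cell stage. They held 135, 67.7 and 96.3 CPM at the 8-cell stage, 93.7, 96.6 and 95.9 CPM in morulae, and 161, 129 and 138 CPM in blastocysts. The 2-cell, 8-cell and morula libraries overlapped, and all 3 blastocyst libraries were above all 3 GV libraries. No transition passed edgeR's quasi-likelihood test in the model of both kinds of library (log2 changes -0.09 to 0.66), while with transcriptomes alone the rise from morula to blastocyst passed (log2 0.69, adjusted p = 0.0122). From GV to blastocyst DDX6 rose by 1.65 on the log2 scale (SE 0.56, adjusted p = 0.0143). No neighbours in the order of means differed, with adjusted p from 0.42 to 1.

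LSM14A was likewise lowest at GV and highest in blastocysts. Its transcriptomes held 44.5, 29.3 and 51.5 CPM at GV, 65.2, 73.4 and 70.4 CPM at MII, and 63.1, 70.0 and 60.8 CPM at the 2-cell stage. They held 76.8, 74.4 and 95.2 CPM at the 8-cell stage, 108, 85.6 and 101 CPM in morulae, and 121, 167 and 142 CPM in blastocysts. Again no single transition passed the quasi-likelihood test in the model of both kinds of library. With transcriptomes alone LSM14A rose from GV to MII (log2 0.81, adjusted p = 0.00219) and from morula to blastocyst (0.66, adjusted p = 0.00908), and the former also passed with DESeq2 (0.0141) and with another scaling, RLE (0.0413). In the model of both, the change from GV to blastocyst was 1.84 on the log2 scale (SE 0.33, adjusted p = 5.31e-05) and no neighbours in the order passed (adjusted p 0.172 to 0.78).

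LSM14B stayed low until the blastocyst. Its transcriptomes held 16.4, 6 and 11.6 CPM at GV, 10.7, 12 and 10.1 CPM at MII, 11.8, 13.1 and 15.5 CPM at the 2-cell stage, and 6.11, 9.52 and 9.07 CPM at the 8-cell stage. They held 4.29, 5.32 and 6.61 CPM in morulae against 37.1, 23.9 and 37.7 CPM in blastocysts. All 3 blastocyst libraries were above every library of the other stages. The morula to blastocyst rise was 6.42-fold (log2 2.68, SE 0.57, adjusted p = 0.00127) and kept its call without any single library. In the order of means only the step from blastocyst down to 2-cell differed between neighbours (adjusted p = 0.0336).

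Among the enhancers and activators of decapping, EDC3 and DCP1A moved in opposite directions at maturation. EDC3 held 50.4, 45.4 and 50.6 CPM at GV and 17.9, 19.8 and 19.9 CPM at MII, so the stages did not overlap, a fall of 2.41-fold (log2 -1.27, SE 0.38, adjusted p = 0.02). It held 32.9, 26.9 and 22.0 CPM at the 2-cell stage and 43.9, 62.0 and 49.2 CPM at the 8-cell stage, a rise of 1.93-fold (log2 0.95, SE 0.38, adjusted p = 0.0385). Morulae held 43.4, 52.3 and 51.6 CPM and blastocysts 33.9, 41.3 and 39.0 CPM, which overlapped with the 8-cell level in morulae and lay below it in blastocysts, with no call between neighbours in the order. Both EDC3 calls depended on single libraries. The fall was lost without GV transcriptome A (0.0542) or C (0.0559) and without MII transcriptome A (0.0709), B (0.0597) or C (0.0609). The rise was lost without 2-cell transcriptome B (0.0856) or C (0.127) and without 8-cell transcriptome B (0.116) or C (0.0565). With transcriptomes alone EDC3 had adjusted p of 2.37e-05 for the fall and 0.000176 for the rise.

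DCP1A held 23.6, 23.8 and 22.1 CPM at GV and 56.5, 53.2 and 54.7 CPM at MII, a rise of 2.50-fold (log2 1.32, SE 0.43, adjusted p = 0.0316). It held 73.5, 69.8 and 67.6 CPM at the 2-cell stage, 43.9, 58.2 and 43.8 CPM at the 8-cell stage, 33.2, 23.4 and 31.9 CPM in morulae, and 25.1, 27.7 and 38.6 CPM in blastocysts. The level at the 2-cell stage, the highest, was above that in morulae by 1.24 on the log2 scale, given as a morula minus 2-cell change of -1.24 (SE 0.43, adjusted p = 0.0164). The rise at maturation was lost without GV transcriptome A (0.0905), B (0.0822) or C (0.0949) and without MII transcriptome A (0.0717), B (0.0609) or C (0.0739). With transcriptomes alone its adjusted p was 1.76e-05, and no neighbours in the DCP1A order differed in the model of both kinds of library (0.264 to 0.863). Falls of DCP1A from 2-cell to 8-cell (log2 -0.48, adjusted p = 0.0402) and from 8-cell to morula (-0.73, 0.0067) passed with transcriptomes alone.

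EDC4 was low and flat through the 8-cell stage and higher in blastocysts. It held 7.68, 6.09 and 6.56 CPM at GV, 7, 6.45 and 5.13 CPM at MII, 7.02, 6.48 and 7.09 CPM at the 2-cell stage, and 8.12, 3.52 and 5.66 CPM at the 8-cell stage. Morulae held 12.8, 13.5 and 5.29 CPM, of which the library C lay within the earlier range, and blastocysts held 24.0, 19.8 and 22.4 CPM, above every other library. No EDC4 transition passed the quasi-likelihood test in the model of both kinds of library, while with transcriptomes alone EDC4 rose from 8-cell to morula (log2 0.84, adjusted p = 0.0463) and from morula to blastocyst (1.17, adjusted p = 0.00523). In the model of both, from GV to blastocyst EDC4 rose by 1.76 on the log2 scale (SE 0.56, adjusted p = 0.0102).

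In the transcriptomes DCP1B was close to absent before the 8-cell stage. It was at 0 in all 3 GV transcriptomes, where 3 counts in one library allow up to 0.262 CPM. It held 0.101, 0.182 and 0.210 CPM at MII, and 0, 0 and 0.358 CPM at the 2-cell stage. It held 1.78, 0.515 and 1.08 CPM at the 8-cell stage, 2.77, 1.77 and 0.916 CPM in morulae, and 2.67, 0.565 and 2.29 CPM in blastocysts. The libraries from the 8-cell stage on were all above those before it. No DCP1B transition passed the quasi-likelihood test in the model of both kinds of library. With transcriptomes alone the rise from 2-cell to 8-cell passed (adjusted p = 0.00369). In the 2-cell gradients DCP1B peaked in F7 of both, at a mean of 2.42 CPM. Against the GV floor the stage means were at least 4.29-fold higher at the 8-cell stage, at least 6.94-fold higher in morulae and at least 7.03-fold higher in blastocysts. Library B stood closer to the floor at the 8-cell stage (0.515 CPM) and in blastocysts (0.565 CPM). The deepest transcriptome reading of DCP1B was 31 counts, so its levels carry large counting error. These fold limits cover counting error only, because reads carried no molecular identifiers.

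DCP2, the decapping enzyme itself, was the member that fell most sharply at the end. It held 61.0, 68.2 and 56.0 CPM at GV, 108, 102 and 118 CPM at MII, 99.5, 106 and 77.9 CPM at the 2-cell stage, and 104, 189 and 136 CPM at the 8-cell stage. Morulae held 77.7, 93.9 and 89.8 CPM, and blastocysts held 13.6, 22.3 and 18.5 CPM, below every library of the other stages. The fall from morula to blastocyst was 4.55-fold (log2 -2.19, SE 0.33, adjusted p = 3.49e-05) and was called without any single library. The rise from GV to MII was 1.87-fold (log2 0.91, SE 0.32, adjusted p = 0.0477). This smaller DCP2 change was lost in 18 of 30 fits that left out a library, including each of the 6 GV and MII transcriptomes (adjusted p 0.0534 to 0.145 over the 18), and had an adjusted p of 0.00109 with transcriptomes alone. In the DCP2 order only GV and blastocyst, the lowest neighbours, differed (0.000113). With transcriptomes alone DCP2 rose from 2-cell to 8-cell (log2 0.64, adjusted p = 0.00818) and fell from 8-cell to morula (-0.72, 0.00754). DESeq2 also called the latter (0.0273).

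XRN1, the exonuclease that acts after decapping, had its highest mean at MII. It held 67.1, 113 and 66.9 CPM at GV and 219, 247 and 333 CPM at MII, with every MII library above every GV library. The rise was 3.42-fold (log2 1.78, SE 0.40, adjusted p = 0.00235) and was kept without any single library. It held 206, 182 and 130.1 CPM at the 2-cell stage, 101, 79.8 and 83.2 CPM at the 8-cell stage, 77.3, 86.4 and 76.3 CPM in morulae, and 29.6, 57.5 and 33.3 CPM in blastocysts. The 2-cell and 8-cell libraries did not overlap, and the fall between them was 1.92-fold (log2 -0.94, SE 0.39, adjusted p = 0.0471). The call on this fall was lost in 18 of 30 fits (0.0509 to 0.14), among them those without 2-cell transcriptome A or B or any 8-cell transcriptome, and XRN1 had an adjusted p of 0.00165 with transcriptomes alone. From MII to blastocyst the log2 change of XRN1 was -2.75 (SE 0.42, adjusted p = 5.15e-06). In the order of means MII and 2-cell did not differ (adjusted p = 0.266). With transcriptomes alone XRN1 fell from MII to 2-cell (log2 -0.75, adjusted p = 0.018) and from morula to blastocyst (-0.88, 0.00497).

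Between all other pairs of stages, 49 of 100 member tests passed, against 48.2% of tests over all genes. EIF4ENIF1 was lower at the later stage in 9 of its 10 such pairs, XRN1 in 7 and DCP2 in 4 (higher in 1). LSM14A was higher in 6, DCP1B in 5, EDC4 in 4 and LSM14B in 4 (lower in 1). Between GV and blastocyst 8 of the 10 genes passed (56.3% over all genes), with DDX6, LSM14A, LSM14B, EDC4 and DCP1B higher in blastocysts and EIF4ENIF1, DCP2 and XRN1 lower.

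The next comparison set the polysome fractions of each gradient (F8 to F10 summed, the fractions the study calls polysomes) against the transcriptome of the same stage. Of 60 tests, 32 passed, 10 higher and 22 lower in polysomes, against 49.7% of tests over all genes, 26% higher and 23.7% lower. By stage the background was 39.7% at GV, 57.4% at MII, 50.8% at the 2-cell stage, 58.9% at the 8-cell stage, 51.6% in morulae and 39.9% in blastocysts. EDC4 and EDC3 stood above their transcriptome level, and XRN1, DDX6 and DCP2 below it. The free RNA (F1 to F2) and light (F3 to F5) fractions were set beside the polysomes after the data had been seen. In the light fractions 38 of 60 member tests passed (55.6% over all genes) and in the free RNA fractions 28 of 60 (48.9%). Of the 32 polysome calls, 28 were the same in the light pools and 21 in the free RNA pools, and 4 were in the polysome pools only. These sets of tests share their transcriptomes and are not independent. Polysome values are given below for each gene, with results of the light or free RNA pools beside them in part.

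**Figure D2:**
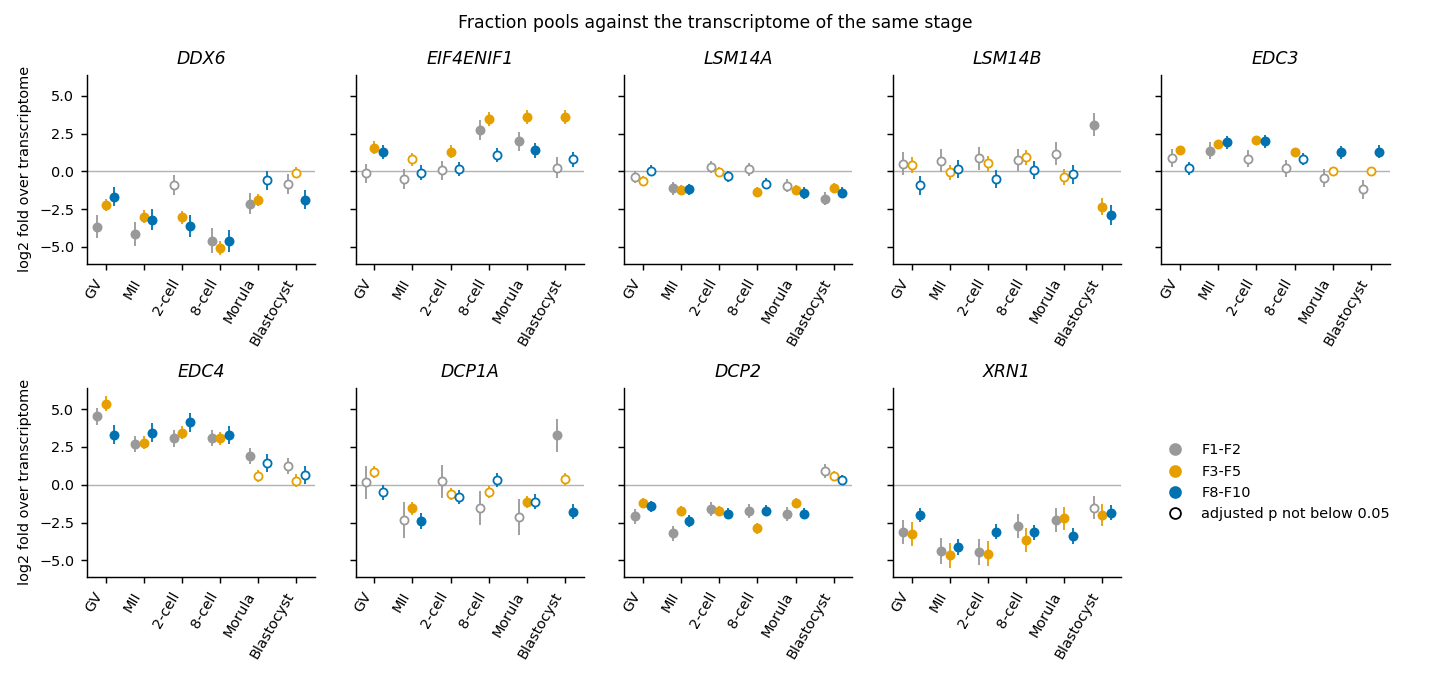
Log2 fold change (y axis, with SE bars) of 3 gradient pools over the transcriptome of the same stage (x axis), for 9 genes. Filled points had an adjusted p below 0.05 and open points did not, and DCP1B is left out because its GV transcriptomes were at 0. XRN1 lies below 0 in every pool at every stage, EDC4 lies above 0 throughout, and EIF4ENIF1 is highest in F3 to F5 from the 8-cell stage on.

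XRN1 was below its transcriptome level at every stage. Its polysome pools of gradients A and B held 30.1 and 12 CPM at GV, 18.3 and 13 CPM at MII, and 25.7 and 11.4 CPM at the 2-cell stage. They held 5.12 and 13.6 CPM at the 8-cell stage, 6.98 and 7.67 CPM in morulae, and 13.7 and 9.26 CPM in blastocysts. Both pools were below all 3 transcriptomes at each of the 6 stages, as were both light and both free RNA pools. The log2 differences were -1.99 at GV (SE 0.47), -4.13 at MII, -3.11 at the 2-cell stage, -3.14 at the 8-cell stage, -3.38 in morulae and -1.84 in blastocysts, all with adjusted p of 0.00323 or lower. The GV call was lost without GV gradient B (-1.48, 0.0584) and the blastocyst call without blastocyst gradient B (-1.59, 0.055). In the light fractions the XRN1 differences ran from -4.68 at MII to -2.01 in blastocysts, and all 6 passed.

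DCP2 behaved in the same way except in blastocysts. Its polysome pools held 26.8 and 20.0 CPM at GV, 16.8 and 26.5 CPM at MII, 22.2 and 24.6 CPM at the 2-cell stage, 38.5 and 43.0 CPM at the 8-cell stage, and 11.8 and 31.8 CPM in morulae. All of these were below the transcriptomes of their stage. The log2 differences ran from -2.38 at MII (adjusted p = 1.32e-05) to -1.43 at GV (adjusted p = 0.00341), the latter lost without GV gradient B (-1.23, 0.0649). In blastocysts the polysome pools held 20.1 and 25.9 CPM, which overlapped with the transcriptomes, and the log2 difference was 0.31. The light and free RNA fractions of DCP2 were also below the transcriptome in the first 5 stages, with log2 differences of -2.88 to -1.19 and -3.23 to -1.59.

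DDX6 was below its transcriptome level in all 12 polysome pools, and most so at the 8-cell stage. The pools held 18.2 and 12 CPM at GV, 6.22 and 8.53 CPM at MII, 6.73 and 7.87 CPM at the 2-cell stage, and 0.222 and 7.41 CPM at the 8-cell stage. They held 70.3 and 51.3 CPM in morulae and 32.3 and 47.8 CPM in blastocysts. The log2 differences were -1.67 at GV (adjusted p = 0.0414), -3.19 at MII, -3.62 at the 2-cell stage, -4.60 at the 8-cell stage (SE 0.75, adjusted p = 1.78e-05) and -1.87 in blastocysts (adjusted p = 0.0247), and -0.60 in morulae, where the test did not pass. The 8-cell difference was -8.72 without gradient B and -3.65 without gradient A. The GV call was lost without either GV gradient (A, 0.0908, and B, 0.235) or any GV transcriptome (0.059 to 0.0764), and the blastocyst call without either blastocyst gradient (A, 0.15, and B, 0.0674) or blastocyst transcriptome A (0.0517). DDX6 was also called lower than the transcriptome in 5 of 6 tests of its light pools and 4 of 6 of its free RNA pools. In blastocysts DDX6 held 119 and 198 CPM in the light pools and 98.9 and 98.2 CPM in the free RNA pools. In the free RNA pools at the 2-cell stage it held 108 and 3.06 CPM, and the higher value came from 1 library, fraction 1 of gradient A, with 232 CPM from 2061 counts against 2.87 CPM in gradient B.

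The LSM14 genes showed smaller differences. Against the transcriptome, LSM14A was called lower in 4 of 6 tests of its light pools and 2 of 6 of its free RNA pools. LSM14A polysome pools held 48.7 and 39.7 CPM at GV, 37.2 and 25.4 CPM at MII, 61.8 and 34.3 CPM at the 2-cell stage, 43.4 and 45.2 CPM at the 8-cell stage, 20.9 and 48.4 CPM in morulae, and 38.5 and 73.2 CPM in blastocysts. They overlapped with the transcriptomes at GV and at the 2-cell stage and were below them at the other 4 stages. Of these, the 8-cell difference did not pass the quasi-likelihood test but was called by DESeq2 (log2 -1.05, adjusted p = 0.00547) and with RLE scaling (0.017). The other 3 passed: -1.19 at MII (adjusted p = 0.00897), -1.42 in morulae (adjusted p = 0.00317) and -1.40 in blastocysts (adjusted p = 0.00486). Each of the LSM14A calls was lost without 1 gradient, MII gradient B (-0.96, 0.0967), morula gradient A (-0.94, 0.0676) and blastocyst gradient A (-1.02, 0.0969). LSM14B passed only in blastocysts, where polysome pools held 3.25 and 5.96 CPM against 23.9 to 37.7 CPM in the transcriptomes (log2 -2.87, SE 0.68, adjusted p = 0.00164), and its light pools held 8.86 and 6.40 CPM. The free RNA pools of LSM14B in blastocysts held 20.0 and 684 CPM, and the second value rested on fraction 1 of gradient B, a library of 1607843 counts with 2653 CPM of LSM14B against 8.67 CPM in gradient A.

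EDC4 was above its transcriptome level up to the 8-cell stage. Its polysome pools held 81.1 and 55.9 CPM at GV, 111 and 26.6 CPM at MII, 123 and 101 CPM at the 2-cell stage, and 48.8 and 59.4 CPM at the 8-cell stage, all above transcriptomes of 3.52 to 8.12 CPM. The log2 differences were 3.31 (SE 0.62), 3.44, 4.13 and 3.30 at these 4 stages, with adjusted p from 8.34e-06 to 0.00014, and each was called without any single library. At MII the difference was 1.99 without gradient A. Morula pools held 5.98 and 46.4 CPM, overlapping with the transcriptomes, and blastocyst pools held 42.3 and 28.5 CPM, above them without passing the test. The morula difference was called only by the likelihood ratio test (log2 1.41, adjusted p = 0.036) and without the filter (1.41, 0.0488). The light fractions held 167 and 321 CPM of EDC4 at GV (log2 difference 5.38, SE 0.47, adjusted p = 1.28e-09) and the free RNA held 119 and 182 CPM (4.53). At each of the first 4 stages all 3 pools of EDC4 were called above the transcriptome.

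EDC3 was also above its transcriptome level in polysomes. The pools held 68.5 and 46.7 CPM at GV, 112 and 37.0 CPM at MII, 97.1 and 106 CPM at the 2-cell stage, 38.5 and 134 CPM at the 8-cell stage, 91.7 and 132 CPM in morulae, and 87.3 and 106 CPM in blastocysts. They overlapped with the transcriptomes at GV and at the 8-cell stage and were above them at the other 4 stages. The log2 differences that passed were 1.93 at MII (adjusted p = 0.000378), 2.00 at the 2-cell stage (SE 0.41, adjusted p = 0.000306), 1.26 in morulae (adjusted p = 0.0136) and 1.31 in blastocysts (adjusted p = 0.0141). Of these EDC3 calls, MII was lost without gradient A (0.84, 0.128), morula without gradient B (0.90, 0.134) and blastocyst without gradient B (1.16, 0.09). The light pools of EDC3 were called above the transcriptome at 4 stages and its free RNA pools at 1. Both light pools were above all 3 transcriptomes at GV, at MII and at the 2-cell and 8-cell stages. In morulae and blastocysts the light and free RNA pools of EDC3 were not called against the transcriptome, with light pools at 60.6 and 44.8 CPM in morulae and 40.1 and 49.8 CPM in blastocysts.

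EIF4ENIF1 was called above the transcriptome in the polysomes of 2 stages and in the light fractions of 5. Its polysome pools held 122 and 118 CPM at GV, above the transcriptomes (log2 1.28, SE 0.48, adjusted p = 0.0363). They held 86.8 and 63.2 CPM at MII, 115 and 91.9 CPM at the 2-cell stage, 22.7 and 57.6 CPM at the 8-cell stage, 6.75 and 28.1 CPM in morulae, and 12 and 4.51 CPM in blastocysts, overlapping with the transcriptomes at each. Only under other settings was the 8-cell difference called: the likelihood ratio test (log2 1.10, adjusted p = 0.0431), no filter (1.18, 0.0381) and equal library totals (1.12, 0.043). The morula difference of 1.40 (adjusted p = 0.0194) was -0.05 without morula gradient B (0.979), and was also lost without morula transcriptome B (1.23, 0.0718) or C (1.33, 0.0579). The GV call was lost without GV gradient A (0.116) or B (0.108) or GV transcriptome B (0.0777) or C (0.122). The light pools held 111 and 138 CPM at GV, 165 and 128 CPM at MII, 196 and 262 CPM at the 2-cell stage, 166 and 258 CPM at the 8-cell stage, 125 and 56.7 CPM in morulae, and 24.7 and 106 CPM in blastocysts. Every one of these 12 light pools was above all transcriptomes of its stage. The log2 differences of the light pools were 1.57 at GV, 1.29 at the 2-cell stage, 3.47 at the 8-cell stage (SE 0.45, adjusted p = 3.69e-07), 3.63 in morulae and 3.60 in blastocysts, and 0.82 at MII, which did not pass.

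DCP1A and DCP1B gave fewer calls. In the light pools DCP1A was called lower at 2 stages, and in the free RNA pools higher at 1. DCP1B was called higher at 1 stage and lower at 1 in the light pools, and the same held in the free RNA pools. DCP1A polysome pools held 17.8 and 3.5 CPM at MII (log2 -2.39, SE 0.52, adjusted p = 0.00039) and 8.03 and 10.1 CPM in blastocysts (log2 -1.79, adjusted p = 0.00681, lost without blastocyst gradient A at 0.0656). At the other stages they held 15.3 and 17.8 CPM at GV, 51.1 and 22.5 CPM at the 2-cell stage, 80.1 and 36 CPM at the 8-cell stage, and 11.5 and 14.3 CPM in morulae, with no call by the quasi-likelihood test. The DCP1A morula difference (log2 -1.13, adjusted p = 0.0555) was called by the likelihood ratio test (0.0427), DESeq2 (0.0125), RLE scaling (0.0309) and equal library totals (0.0406). Without MII gradient A the MII difference was -4.08 and without gradient B it was -1.68. The free RNA pools of DCP1A in blastocysts held 5.60 and 726 CPM, and the second value rested on the same fraction 1 library of gradient B, which held 2847 CPM of DCP1A against 6.39 CPM in gradient A. DCP1B polysome pools held 0.361 and 0 CPM at GV, 0 and 0 CPM at MII, 0 and 0.0276 CPM at the 2-cell stage, 0 and 2.60 CPM at the 8-cell stage, 1.72 and 6 CPM in morulae, and 6.71 and 1.41 CPM in blastocysts, with no call against the transcriptome by the quasi-likelihood test. The MII difference of DCP1B, with both pools at 0, was called by the likelihood ratio test (0.0313) and DESeq2 (0.0492).

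Within the gradient, heavy fractions (F8 to F10) were set against light fractions (F3 to F5), a comparison in which both sides come from the same lysate and which uses no transcriptome. None of the 60 member tests passed with edgeR's quasi-likelihood test, against 1.32% of tests over all genes. By stage that background was 0.505% at GV, 0.246% at MII, 0% at the 2-cell stage, 6.05% at the 8-cell stage, 0.571% in morulae and 0.538% in blastocysts. This test did not pair the pools of a gradient. With the gradient as a block 0 of 60 member tests passed as well, beside 0.0864% to 7.91% of all genes by stage. Without the block 5 member tests had an unadjusted p below 0.05, and the likelihood ratio test called 2 and DESeq2 called 4. EIF4ENIF1 gave 3 of the 5. Its heavy pools lay below its light pools in both gradients at every stage but GV. The log2 differences of EIF4ENIF1 were 0.01 at GV, -0.87 at MII, -1.04 at the 2-cell stage, -2.34 at the 8-cell stage (SE 0.92, adjusted p = 0.119), -2.34 in morulae (SE 0.92, adjusted p = 0.208) and -2.89 in blastocysts (SE 0.95, adjusted p = 0.156). DESeq2 gave these last 3 adjusted p of 0.0217, 0.0463 and 0.00964. The other 2 were EDC4 at GV (log2 -1.77, adjusted p = 0.674) and DCP1B in blastocysts, where both light pools were at 0 and the heavy pools held 6.71 and 1.41 CPM (adjusted p = 0.201).

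Free RNA (F1 to F2) was also set against the light fractions, and 1 of 60 member tests passed, against 0.866% over all genes. It was LSM14B in blastocysts, at 20.0 and 684 CPM in free RNA and 8.86 and 6.40 CPM in the light pools (log2 5.42, SE 1.25, adjusted p = 0.0314). The LSM14B difference was 1.02 without blastocyst gradient B (adjusted p = 1) and 4.43 with the gradient as a replicate block (adjusted p = 0.0938), and the call was lost in 7 of 12 fits that left out a gradient.

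**Figure D3:**
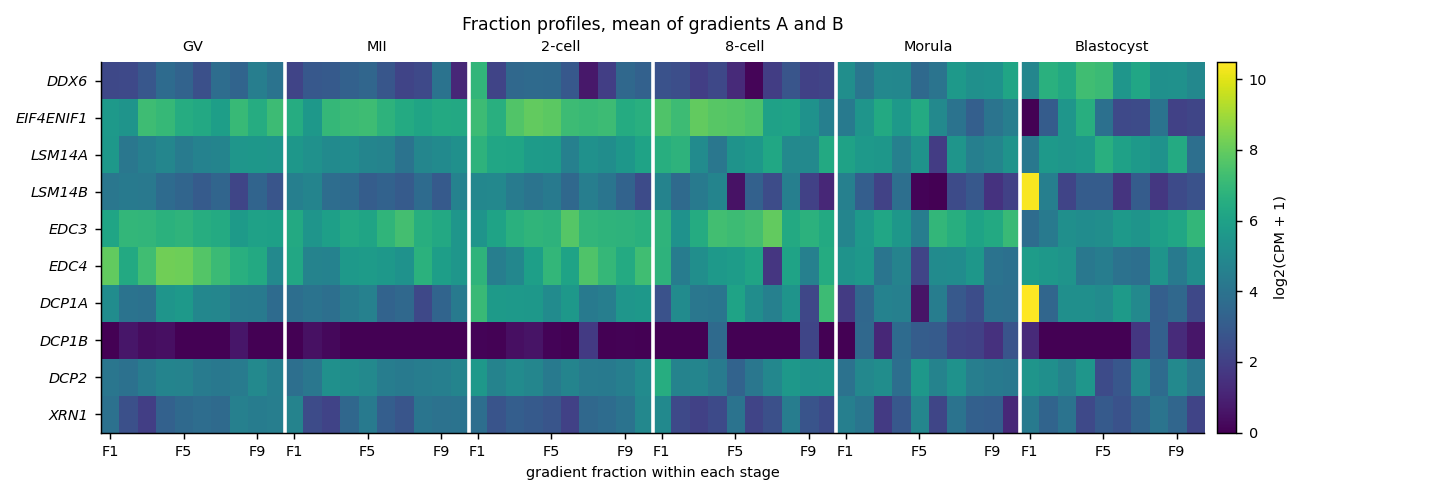
Mean level of each gene over gradients A and B in fractions F1 to F10 (x axis, by stage), as the color of log2(CPM + 1). EIF4ENIF1 is brightest in F3 to F5 at all 6 stages, and the bright F1 cells of LSM14B and DCP1A in blastocysts come from gradient B alone.

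The profiles over all 10 fractions described the same genes at finer scale. Averaged over both gradients, the 60 member profiles peaked in F1 to F2 in 24 cases, in F3 to F5 in 19, in F6 to F7 in 5 and in F8 to F10 in 12. Profiles whose gradients each peaked in the zone numbered 7, 10, 3 and 6 in the same order, so many of these positions were not shared by both gradients. Over all genes the shares were 29.5%, 23.6%, 16.3% and 30.7%. In these averages EIF4ENIF1 peaked in F3 to F5 at all 6 stages, LSM14A and LSM14B in F1 to F2 at 5 stages each, DDX6 in F8 to F10 at 4, and EDC3 in F6 or F7 at 3 stages and in F10 at 2. Gradient A alone peaked elsewhere for EIF4ENIF1 at GV (F10) and at the 8-cell stage (F1), and of the 4 DDX6 stages both gradients peaked in F8 to F10 at GV only. These are descriptions, since fractions of a gradient share a lysate and each is scaled to its own library.

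EIF4ENIF1 held a broad profile at GV and lighter ones at the later stages. At GV it was between 52.7 and 158 CPM in F3 to F10 of gradient A and between 62.8 and 159.9 CPM in those of gradient B. Spearman's rho of level with fraction number over F3 to F10, taking the separate values of both gradients together, was -0.12. At the 8-cell stage gradient A held 301, 109, 168, 213, 123, 119, 27.9, 28.8, 18.1 and 23.1 CPM in F1 to F10. Gradient B held 85.1, 179, 325, 216, 285, 245, 97.0, 104, 60.4 and 21.5 CPM in the same fractions. In both gradients every value in F7 to F10 was below every value in F2 to F6, and rho was -0.86. At the remaining stages rho of EIF4ENIF1 was -0.65 at MII, -0.76 at the 2-cell stage, -0.70 in morulae and -0.71 in blastocysts. In blastocysts EIF4ENIF1 peaked in F4 of both gradients, at 22.8 CPM in A and 166 CPM in B, so the position was shared and the height was not.

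EDC3 and DDX6 peaked toward the heavy end at some stages. EDC3 peaked in F10 of both gradients in blastocysts, at a mean of 121 CPM (rho 0.70), and in F6 of both at the 2-cell stage, at a mean of 212 CPM. DDX6 at GV peaked in F10 of gradient A and F9 of gradient B (rho 0.41), and in morulae in F7 and F10 (rho 0.44), whereas in blastocysts it peaked in F5 and F4 (rho -0.73). At the 8-cell stage DDX6 was at 0 in 5 of the 10 fractions of gradient A and 1 of gradient B, and the highest value was 11 CPM.

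**Figure D4:**
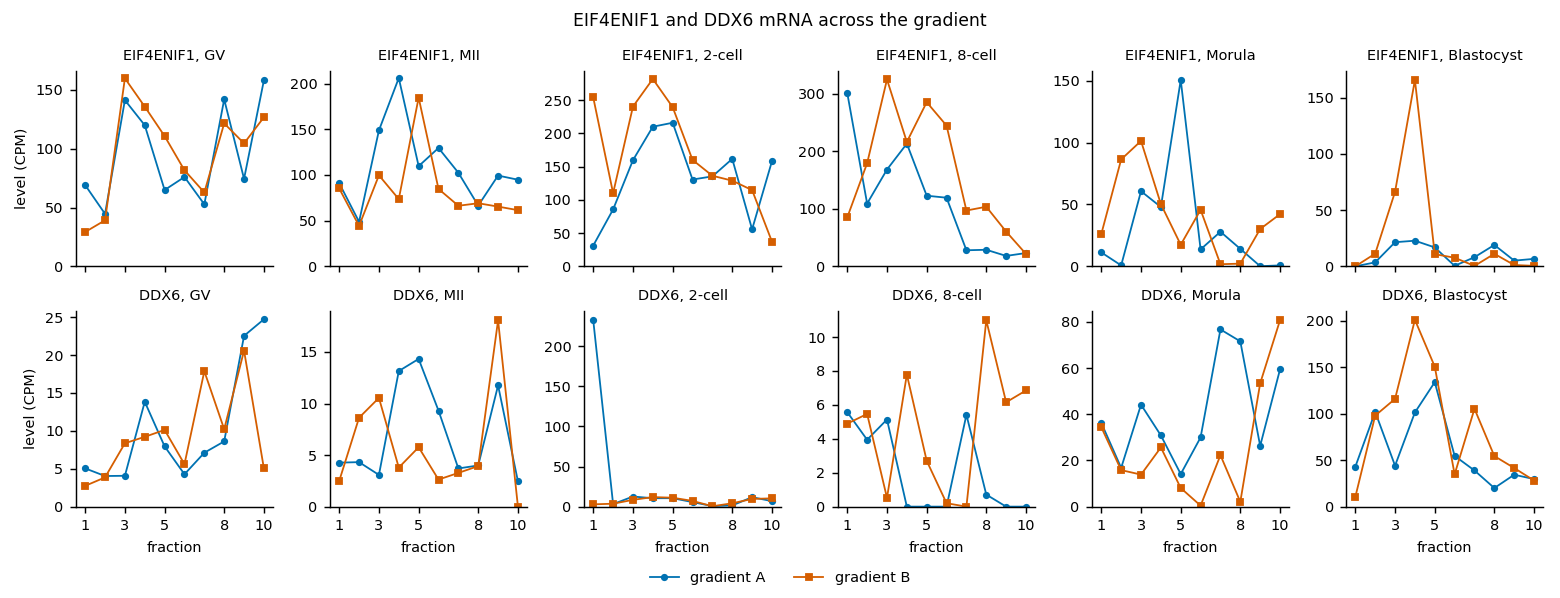
Level of EIF4ENIF1 (top) and DDX6 (bottom) in CPM (y axis, own scale per panel) in fractions 1 to 10 (x axis) of gradients A and B at each stage. EIF4ENIF1 is higher in F2 to F6 than in F7 to F10 in both 8-cell gradients, and the 232 CPM of DDX6 in F1 at the 2-cell stage is in gradient A only.

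Within the polysome fractions the change from stage to stage was tested next. Of 50 tests 5 passed, against 22.5% over all genes. In order of development the background of the transitions was 5.41%, 8.77%, 47.2%, 37% and 14.2%. DDX6 rose from 0.222 and 7.41 CPM at the 8-cell stage to 70.3 and 51.3 CPM in morulae (15.1-fold, log2 3.91, SE 0.75, adjusted p = 0.000339), a log2 change of 2.97 without 8-cell gradient A and 8.03 without gradient B. DCP1A fell over the same transition, from 80.1 and 36 CPM to 11.5 and 14.3 CPM (log2 -2.19, SE 0.54, adjusted p = 0.00298), and both calls were kept without any single library. DCP1A also rose from MII to the 2-cell stage (log2 1.82, SE 0.53, adjusted p = 0.0328), which was lost without 2-cell gradient A (1.09, 0.343) or MII gradient B (1.06, 0.3). EIF4ENIF1 fell from the 2-cell to the 8-cell stage (log2 -1.35, SE 0.54, adjusted p = 0.0427). This EIF4ENIF1 call was lost in 14 of 30 fits, with the highest adjusted p, 0.288, without 8-cell gradient A (-0.82). DDX6 had no call over that transition (log2 -0.89), and -5.01 without 8-cell gradient B (adjusted p = 3.62e-07). DCP1B was called higher at the 8-cell stage than at the 2-cell stage, at 0 and 2.60 CPM against 0 and 0.0276 CPM, and its fitted change was -1.62 without 8-cell gradient B.

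Last, the change in polysomes was compared with the change in the transcriptome over the same transition. Of 50 tests 4 passed, against 9.82% over all genes (10.6%, 1.83%, 12.1%, 12.4% and 12.2% over the 5 transitions in order). From GV to MII, XRN1 rose in the transcriptome while its polysome pools moved from 30.1 and 12 to 18.3 and 13 CPM, a difference of changes of -2.14 (SE 0.62, adjusted p = 0.0274). From the 8-cell stage to morula, DDX6 rose in polysomes while its transcriptome stood at 67.7 to 135 and then 93.7 to 96.6 CPM, a difference of 4.0 (SE 0.89, adjusted p = 0.00463). From morula to blastocyst, LSM14B rose in the transcriptome while its polysome pools went from 5.44 and 3.67 to 3.25 and 5.96 CPM (-2.68, SE 0.87, adjusted p = 0.0445). Over the same transition DCP2 fell in the transcriptome while its polysome pools went from 11.8 and 31.8 to 20.1 and 25.9 CPM (2.22, SE 0.51, adjusted p = 0.00663). The DDX6 and DCP2 differences were kept without any single library. The XRN1 difference was lost without GV gradient A (-1.33, 0.285), MII gradient B (-1.90, 0.128), GV transcriptome A (0.0669) or C (0.0643), or MII transcriptome C (0.0745). The LSM14B difference was lost in 19 of 30 fits (0.0512 to 0.154).

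Further genes of the pathway were counted in lists. Of 16 other decapping and decay genes, 23 of 80 transcriptome transitions passed (11 higher, 12 lower), and of 12 measured partners of DDX6 and 4E-T, 19 of 60 (7 higher, 12 lower), beside 24.5% over all genes. From the 2-cell to the 8-cell stage 7 of 16 decay genes rose and 2 fell, beside 52.2% of all genes called (27.7% higher, 24.5% lower), with a median log2 change of 0.30 over the list and 0.03 over all genes. PNRC1, an adaptor of the decapping complex, had the largest rise (log2 7.09, adjusted p = 4.26e-11), followed by LSM5 (3.18), and PATL2 and UPF1 fell by 3.90 and 1.54 on the log2 scale. Among the partners 3 rose and 6 fell over the same transition, with a median of -0.89. CAPRIN1 rose by 4.55 and MARF1 by 2.68, while the oocyte RNA-binding genes ZAR1 and ZAR1L fell by 5.42 and 4.49 on the log2 scale. In heavy against light fractions, where 1.32% of tests over all genes passed and 6.05% at the 8-cell stage, 2 of 96 decay gene tests passed, PNRC2 (4.79) and XRN2 (2.81) at the 8-cell stage, both higher in the heavy pools. In the same comparison 6 of 72 partner tests passed and all were lower in the heavy pools: ZAR1L at the 8-cell (-2.94), morula (-3.17) and blastocyst (-6.10) stages, EIF4E1B at the 8-cell stage (-4.36) and in blastocysts (-6.68), and YBX1 at MII (-2.65). Polysomes were called against the transcriptome in 61 of 96 decay gene tests (28 higher, 33 lower) and 34 of 72 partner tests (11 higher, 23 lower), beside 49.7% over all genes.

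The genes whose log level over the 18 transcriptomes was most like that of a member were found among 14606 genes. For EIF4ENIF1 they were UNC13C (Pearson's r 0.992) and MFSD6 (0.987). For DCP2 they were NOC3L (0.976), GEMIN5 (0.974) and USP15 (0.973), and for XRN1 KIAA0586 (0.972), SCAF8 (0.970) and ARID2 (0.965). Among the other members the leading gene was CTSD for DDX6 (0.919), NDFIP2 for LSM14A (0.937), GCLC for LSM14B (0.900), TBC1D22A for EDC4 (0.958), TBL1XR1 for DCP1A (0.882) and TNFRSF1B for DCP1B (0.930). Replicates of 1 stage are alike, so these values mostly describe the 6 stage means.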

How the data were processed

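The authors made libraries with a Smart-seq kit and Nextera XT, quantified reads per gene with Salmon and deposited 1 table of expected counts, not normalized, of which 11.7% of values are not whole. The submitters' notes name UMD3.1 and the study's methods another bovine build, and the Salmon version is not given in the sources used here. Counts were rounded. Columns gave stage, fraction and letter, with 0 left unmapped, and none of 78 pairs of replicates was identical. Fractions of a gradient were summed to pools. TMM scaling, filterByExpr and edgeR's quasi-likelihood test (edgeR 4.0.16, limma 3.58.1, R 4.3.3) were applied to 30 libraries (18 transcriptomes, 12 polysome pools; 14612 genes) and to 36 gradient pools (15049 genes), with Benjamini-Hochberg adjustment over all genes at 0.05. The study names the likelihood ratio test, kept as an alternative beside DESeq2 1.42.0, other scaling, no filter, other pools, a replicate block and leaving out each library. For light and free RNA pools against the transcriptome, the same test replaced the polysome pools. Profiles were drawn with Python 3.11.15, pandas 2.3.3, numpy 2.4.6 and matplotlib 3.10.9.

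All 10 members are named whatever their values, with at most the 2 largest called changes in each direction from each of the other lists, at each transition or stage of a comparison. Members and lists were chosen with earlier results of these data known, and CPEB1 was not analysed here. Some of the genes most like EIF4ENIF1 and EDC3 are not reported here. Gradients are biological duplicates and transcriptomes triplicates. Pools of 1 gradient share a lysate, which pairs them by construction, and a similar correlation between light and heavy pools was -0.08 to 0.17. Between consecutive stages, transcriptomes of the same letter had correlations of deviations of -0.35 to 0.13. The sources do not say that a letter marks a shared batch, and such correlations cannot exclude one. In simulated counts for the 2-cell to 8-cell transcriptome comparison over 14612 genes, 3 of 80 genes changed 2-fold, 32 of 80 changed 4-fold and 37 of 40 changed 16-fold were recovered, with 2 false calls. For 8-cell heavy against light pools over 15049 genes these were 0 of 80, 2 of 80 and 11 of 40, with 0 false calls. The transcriptome simulation left 14412 of 14612 genes unchanged, while 52.2% of genes were called at that transition in the data. It therefore does not give the share of changes found in the data.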

Additional observations from a re-analysis of the deposited data

Results flagged for a closer look

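In 4 cases a member's change between consecutive stages differed between polysomes and the transcriptome, by a test of the difference itself (adjusted p below 0.05, edgeR). The difference, polysome change minus transcriptome change on the log2 scale, was -2.14 for XRN1 from GV to MII, 4.0 for DDX6 from the 8-cell stage to morula, -2.68 for LSM14B from morula to blastocyst and 2.22 for DCP2 from morula to blastocyst. Groups held 2 or 3 libraries, too few to look for single libraries far from the rest.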

How the results depend on the processing

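Counts of called member tests changed by over 1.5 times in these cases. Transcriptome transitions went from 10 to 23 with transcriptomes alone. Polysome transitions went from 5 to 8 with DESeq2 and 3 with F9 to F10 as polysomes. Polysome change against transcriptome change went from 4 to 7 with the likelihood ratio test, 8 with DESeq2, 2 with F9 to F10 and 12 with F3 to F5 in place of the polysomes. Heavy against light pools went from 0 to 2 and 4 with those tools, and free RNA against light pools from 1 to 3 and 4, to 2 with equal library totals and to 0 with the replicate block. Profiles peaking in F8 to F10 were 12, and 23 when only F3 to F10 were compared.

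Leaving out each library gave 6 to 14 transcriptome transitions, 2 to 12 polysome transitions, 28 to 38 polysome differences from the transcriptome, 2 to 14 differences of changes, 0 to 3 heavy against light and 0 to 3 free RNA against light calls. Called in every such fit were 4 of 10, 2 of 5, 18 of 32, 2 of 4 and 0 of 1 (free RNA).

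LSM14B in 8-cell polysomes against the transcriptome reversed to -1.87 with F9 to F10. The F9 to F10 pools also lost the polysome transitions of DCP1A from MII to 2-cell (0.128) and EIF4ENIF1 (0.2), the calls on EIF4ENIF1 in GV and morula polysomes, XRN1 and DDX6 in GV and blastocyst polysomes, and the differences of changes of XRN1 and LSM14B. Without the filter DCP1A (0.059) and DCP2 (0.0967) from GV to MII, EDC3 from 2-cell to 8-cell (0.0647; RLE 0.0588) and the LSM14B difference of changes (0.0596; equal totals 0.0514) were lost.

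With the replicate block the counts were 8, 5, 30, 3, 0 and 0. Lost were EDC3 (0.0514) and XRN1 (0.0607) from 2-cell to 8-cell, EIF4ENIF1 in the polysome transition (0.0567), DDX6 (0.0573) and EIF4ENIF1 (0.0563) in GV polysomes, and the LSM14B difference of changes (0.0665), and DCP2 in polysomes from 8-cell to morula (0.0403) was gained. Whether a transcriptome letter marks a shared batch is not known, and the same letter correlated best in 5 of 15 cases.

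The other scaling moved the median of all genes by up to -0.24 (8-cell polysomes against transcriptome). In simulated 8-cell heavy against light pools 2 of 80 changes of 4-fold were recovered, with 14849 of 15049 genes left unchanged. The data had 6.05% of genes called at that stage, so the simulation does not give the share of changes found in the data. An uncalled difference of that size may still have been missed. DCP1B was limited by transcriptome counts of at most 31.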
